A study of Mus musculus with 29 samples.

Results

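Claudins are the membrane proteins that form the strands of tight junctions, and the 10 claudin genes described here are Cldn1, Cldn2, Cldn3, Cldn4, Cldn7, Cldn8, Cldn10, Cldn12, Cldn18 and Cldn23. They were taken as every probe set of the array annotated to those genes. All 10 genes had a probe set, 19 in all, among 45101 probe sets on the array. A filter on low signals kept 17 of them, so all 10 genes were tested among 14606 genes. The 2 probe sets left out, 1438850_at and 1450014_at, both belong to Cldn1. A further 14 claudin genes had a probe set, and 7 of those were tested.

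Each claudin crosses the membrane several times, and its outer loops bind claudins of the neighbouring cell, so the set of claudins in a cell fixes which ions and solutes pass between cells. Cldn3, Cldn4 and Cldn7 are widespread in epithelium and are generally barrier forming. Cldn2 is a pore claudin that lets small cations and water through and is typical of leaky epithelia such as the proximal kidney tubule and intestinal crypts. Cldn18 is the claudin most characteristic of the alveolar epithelium in lung, and a second promoter of the same gene serves the stomach. Cldn5 is the claudin of endothelial cells.

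The 29 arrays came from mice of a 129/Bl6 mixed background, and every animal carried the CCSP-rtTA transgene, in which the promoter of an airway secretory protein drives a doxycycline-dependent activator. The normal lung (1 array) carried that transgene alone. The TI-K primary tumours (8 arrays) also carried an oncogene transgene under the control of the activator. The TI-KM primary tumours (14 arrays) and the TI-KM recurrences (6 arrays) carried that oncogene transgene and TRE-Mad2, the latter a gene of the mitotic spindle checkpoint. The labels call the tumours adenocarcinoma or adenoma of the lung, and give no ages, doses or times. Nothing in the labels says that arrays of a group came from separate animals, and 2 TI-KM primary tumours share the title number 76, so p-values measure the spread between these samples. From the series title, the comparisons bear on how Mad2 overexpression and relapse after withdrawal of the oncogene alter the tumours.

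The values are array signals on a linear scale, and differences are on the log2(signal + 20) scale, from 1 limma model over all arrays. A gene was called at a Benjamini-Hochberg adjusted p under 0.05 over all genes tested. A signal depends on the probes, so levels are compared between groups for the same gene and never between genes. Arrays differed by more than their groups: the signal of the 18S ribosomal control was 12665 to 24001 in 10 tumour arrays, 6 TI-KM primary and 4 recurrences, and at most 10857 in the other 18 tumours. Those 10 are called the high-18S arrays below. The normal lung read 12569, close to the lowest of them. Of the other 18, the 5 TI-K tumours with title numbers over 6000 form a set of their own, and the remaining 13 span all 3 tumour groups. No label names these sets as batches. The normal lung array stood apart too, with a mean log2 level of 3 fat cell genes of 14.44 against 7.19 to 9.64 in the tumours.

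The windows around the start sites of the genes that were higher in tumours are shown first, because 4 of these 5 genes moved by similar amounts and Cldn2, by its brighter probe set, by more. They are RefSeq sequences of the GRCm38.p6 build, from 250 bases before to 50 bases after the start, printed on the gene's strand. Capitals mark CAGGTG on either strand, the E-box read by Snail and Zeb repressors, TTTATG on either strand, the core of CDX sites, and TATAAA on either strand, the TATA box. Windows were found for 8 of the 10 genes, 13 windows in all. Cldn7 has a second, upstream window, chr11:69964529-69964828, which held none of these motifs and is not printed.
Cldn2, chrX:139800558-139800857, plus strand: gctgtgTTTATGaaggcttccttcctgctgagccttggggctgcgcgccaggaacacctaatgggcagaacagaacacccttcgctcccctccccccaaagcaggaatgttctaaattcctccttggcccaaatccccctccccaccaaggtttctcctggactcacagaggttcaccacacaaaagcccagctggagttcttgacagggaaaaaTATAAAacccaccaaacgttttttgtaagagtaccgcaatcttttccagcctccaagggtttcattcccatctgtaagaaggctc
Cldn3, chr5:134985964-134986263, plus strand: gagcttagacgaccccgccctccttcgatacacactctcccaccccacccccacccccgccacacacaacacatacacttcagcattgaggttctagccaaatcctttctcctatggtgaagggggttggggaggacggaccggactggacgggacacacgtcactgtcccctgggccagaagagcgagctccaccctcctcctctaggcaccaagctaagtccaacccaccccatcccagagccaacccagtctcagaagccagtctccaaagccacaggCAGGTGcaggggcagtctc
Cldn4, chr5:134946885-134947184, minus strand: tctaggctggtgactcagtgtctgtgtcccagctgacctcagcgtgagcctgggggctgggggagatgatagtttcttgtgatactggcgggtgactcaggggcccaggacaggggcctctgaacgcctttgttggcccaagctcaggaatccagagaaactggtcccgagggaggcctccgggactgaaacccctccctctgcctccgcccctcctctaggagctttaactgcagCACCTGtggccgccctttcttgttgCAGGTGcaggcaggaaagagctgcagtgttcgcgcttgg
Cldn7, downstream start, chr11:69965171-69965470, plus strand: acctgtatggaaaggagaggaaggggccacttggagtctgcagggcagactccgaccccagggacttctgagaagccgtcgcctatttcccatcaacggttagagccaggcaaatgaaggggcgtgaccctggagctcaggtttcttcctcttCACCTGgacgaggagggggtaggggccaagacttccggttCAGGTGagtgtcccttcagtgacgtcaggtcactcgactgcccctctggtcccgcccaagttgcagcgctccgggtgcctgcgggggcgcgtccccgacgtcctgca
Cldn18, upstream start, chr9:99717218-99717517, minus strand: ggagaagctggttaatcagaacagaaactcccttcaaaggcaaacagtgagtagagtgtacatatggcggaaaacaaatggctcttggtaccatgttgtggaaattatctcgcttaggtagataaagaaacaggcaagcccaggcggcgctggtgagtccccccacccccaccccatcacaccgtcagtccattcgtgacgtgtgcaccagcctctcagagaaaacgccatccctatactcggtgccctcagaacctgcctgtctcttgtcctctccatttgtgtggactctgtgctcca
Cldn18, downstream start, chr9:99710014-99710313, minus strand: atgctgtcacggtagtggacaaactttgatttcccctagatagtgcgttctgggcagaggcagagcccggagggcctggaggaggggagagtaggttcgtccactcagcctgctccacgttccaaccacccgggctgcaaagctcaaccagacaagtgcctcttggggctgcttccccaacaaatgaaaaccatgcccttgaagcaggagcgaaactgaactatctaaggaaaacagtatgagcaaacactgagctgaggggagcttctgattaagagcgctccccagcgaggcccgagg

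CAGGTG or its reverse complement CACCTG lay in 3 of the 13 windows, 1 each of Cldn3, Cldn4 and Cldn7, and in 20.2% of all 32851 windows of the same length, a similar share. In Cldn4 the matches began at positions -14 and 12 relative to the start, in Cldn3 at 32 and in Cldn7 at -97 and -57. TTTATG lay in the Cldn2 window at -244 and in 11.9% of all windows, and TATAAA lay in the Cldn2 window at -35 and in 13.6%. CTCAAG, a letter string close to the site of Nkx2-1, lay on neither strand of either Cldn18 window and in 15.9% of all windows. None of these motifs shares bases with another in the windows printed. A match is a description of the letters and not of binding.

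The 5 genes are spread over 4 chromosomes. Cldn3 (chr5:134986214-134987476) and Cldn4 (chr5:134945123-134946934) are adjacent, with no other coding gene of the RefSeq table between them over 39279 bases. Cldn2 is at chrX:139800808-139811386, Cldn7 at chr11:69964779-69967886 and Cldn18 at chr9:99690796-99717267. The other members are Cldn1 and Cldn8 on chromosome 16, Cldn10 on 14, Cldn12 on 5 and Cldn23 on 8.

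Against the normal lung, 5 of the 10 claudins were higher in each of the 3 tumour groups and none was lower. They were the pore claudin Cldn2, the epithelial barrier claudins Cldn3, Cldn4 and Cldn7, and the alveolar Cldn18. The share of all genes called higher was 6.68% in TI-K primary, 7.69% in TI-KM primary and 6.39% in recurrent tumours, and the share called lower was 6.76%, 7.16% and 6.06%. The median log2 difference over the 10 claudins was 1.48, 1.79 and 1.51 in these groups, against -0.00, 0.10 and 0.14 over all genes. All 5 were also called in fits of the normal lung with the high-18S arrays alone, in both TI-KM groups. The plots of signal by group and of the differences from the normal lung show these values.

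**Figure D1:**
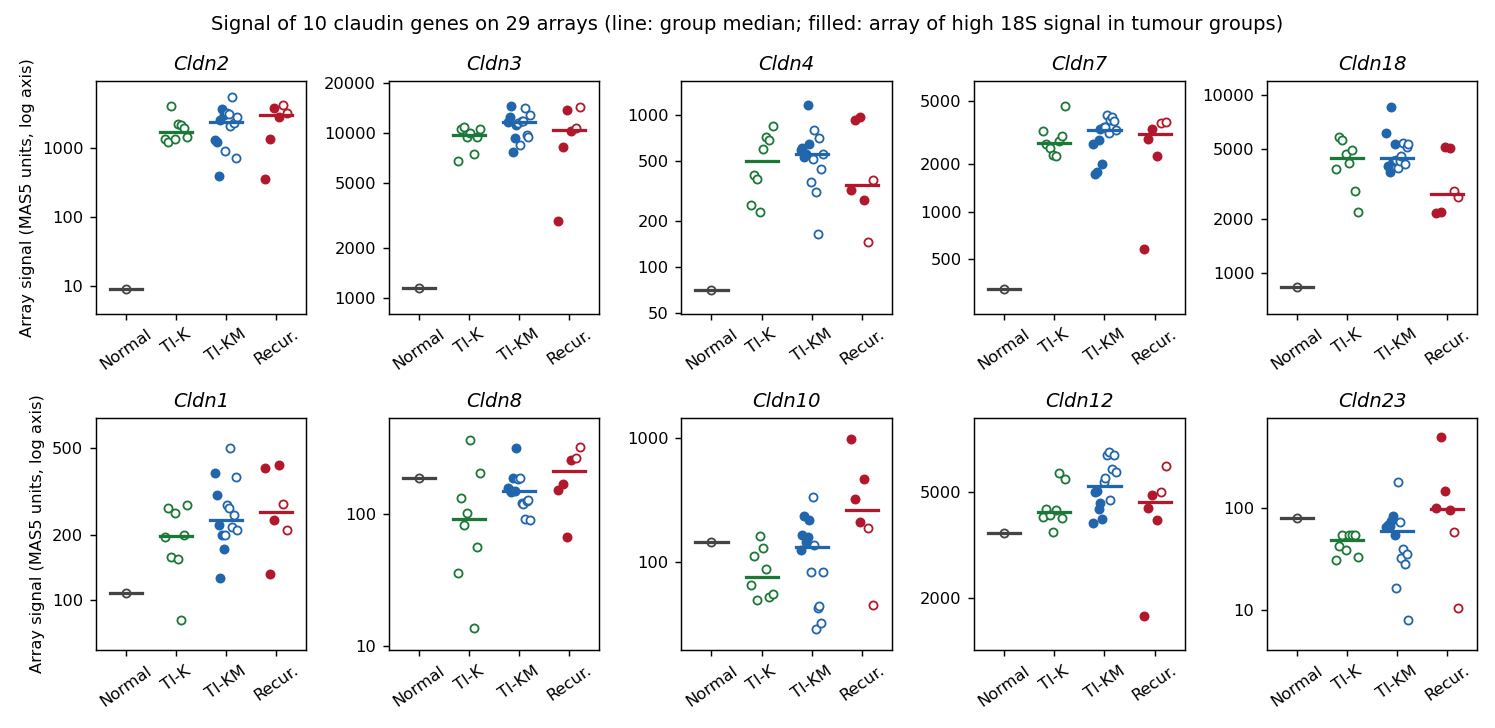
Signal (MAS5 units, log axis) of the 10 claudins on all 29 arrays, 1 point per array and a line at the group median, with high-18S tumour arrays filled. For Cldn2, Cldn3, Cldn4, Cldn7 and Cldn18 every tumour lies above the normal lung, and for the other 5 genes the normal lung lies within or close to the tumours.

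Cldn2 had a signal of 8.92 on the normal lung array, under the 40th percentile of that array (68.1). In TI-K primary tumours it ran from 1212 to 4032 with a median of 1679 (n = 8), in TI-KM primary tumours from 387 to 5404 with a median of 2388 (n = 14) and in recurrences from 357 to 4199 with a median of 3035 (n = 6). All 28 tumours lay above the normal lung. The log2 differences were 5.99 ± 0.97 (SE, adjusted p = 6.0e-05), 6.06 ± 0.95 (adjusted p = 3.5e-05) and 6.16 ± 0.99 (adjusted p = 6.3e-05). Because the normal value is near the bottom of its array, the size rests on the offset: it was 7.03 with an offset of 5 and 4.14 with an offset of 100 in TI-K primary tumours. With the normal lung set at its 40th percentile, the group means were at least 20.9-fold, 21.8-fold and 23.4-fold higher.

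The second probe set of Cldn2, 1417232_at, was dim and disagreed with the first, 1417231_at. It read 42.1 in the normal lung, 34.2 to 155 in TI-K primary, 97.2 to 282 in TI-KM primary and 109 to 342 in recurrent tumours. Its log2 differences from normal lung were 0.73, 1.49 and 1.87, and only that of the recurrences was called (adjusted p = 0.033 over all probe sets kept). The value of Cldn2 in tumours therefore comes from the first probe set unless named otherwise.

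Cldn3, an abundant barrier claudin of epithelium, read 1147 in the normal lung. It ran from 6726 to 10856 in TI-K primary (median 9709), from 7685 to 14484 in TI-KM primary (median 11587) and from 2932 to 14368 in recurrent tumours (median 10438). The groups of tumours overlapped one another and none overlapped the normal lung. The log2 differences were 2.99 ± 0.45, 3.24 ± 0.44 and 2.94 ± 0.46 (SE, adjusted p at most 3.9e-05). All 4 probe sets of Cldn3 were called higher in all 3 groups, with differences of 2.76 to 3.69.

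Cldn7, which is found along the sides of epithelial cells as well as in tight junctions, read 324 in the normal lung. It ran from 2253 to 4695 in TI-K primary (median 2734), from 1723 to 4079 in TI-KM primary (median 3306) and from 577 to 3714 in recurrent tumours (median 3122). The log2 differences were 3.07 ± 0.57, 3.13 ± 0.56 and 2.79 ± 0.58 (SE, adjusted p at most 0.0013). Again the lowest tumour was a recurrence, and it still lay above the normal lung.

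Cldn4, a barrier claudin that epithelial cells often raise under stress, read 71.2 in the normal lung. It ran from 229 to 848 in TI-K primary (median 502), from 166 to 1169 in TI-KM primary (median 556) and from 146 to 972 in recurrent tumours (median 347). The log2 differences were 2.42 ± 0.73 (SE, adjusted p = 0.023), 2.57 ± 0.71 (adjusted p = 0.012) and 2.23 ± 0.74 (adjusted p = 0.045). The TI-K primary call was lost with an offset of 100 (1.75, adjusted p = 0.055). The recurrence call lies close to the threshold, and it was lost under 9 alternatives, among them each array scaled to a common median (adjusted p = 0.059) and leaving out recurrence 2 (0.070) or recurrence 3 (0.069).

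Cldn18, the alveolar claudin, was also higher in the tumours: it read 825 in the normal lung, 2196 to 5798 in TI-K primary (median 4400), 3698 to 8562 in TI-KM primary (median 4418) and 2172 to 5094 in recurrent tumours (median 2761). All 28 tumours lay above the normal lung. The log2 differences were 2.28 ± 0.43 (SE, adjusted p = 0.00045), 2.51 ± 0.42 (adjusted p = 9.6e-05) and 1.90 ± 0.44 (adjusted p = 0.0039). A second probe set, 1425445_a_at, gave 2.30, 2.27 and 1.69, called in TI-KM primary tumours only (adjusted p = 0.048). Whether these 2 probe sets separate transcripts of the lung and stomach promoters was not tested. So both the pore claudin and the alveolar claudin were higher in tumours, and the direction against the normal lung does not separate them.

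The size of the difference depended on the Cldn2 probe set. With the brighter one, within each array, the log2 ratio of Cldn18 to Cldn2 was 4.87 in the normal lung, 0.47 to 2.24 in TI-K primary, -0.01 to 3.19 in TI-KM primary and -0.55 to 2.54 in recurrent tumours, so that all 28 tumours had a lower ratio. The normal value rests on a Cldn2 signal near the bottom of its array: with Cldn2 at the 40th percentile it was 3.26, against a highest tumour of 3.19. With the dimmer Cldn2 probe set the order turned, with 3.77 in the normal lung, 4.34 to 6.64 in TI-K primary, 3.84 to 5.45 in TI-KM primary and 3.27 to 4.38 in recurrent tumours. These alternatives were chosen after seeing the data. The ratio of Cldn18 to Cldn3 was -0.47 in the normal lung and -2.43 to 0.16 over the tumours, and that of Cldn18 to Cldn7 was 1.30 and -1.09 to 1.88. The ratio of Cldn18 to Cldn4 was 3.21 and 1.22 to 4.86. For these 3 ratios the normal lung lay inside the range of the tumours. With 1 normal array no test of these ratios between normal lung and tumours was made.

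**Figure D2:**
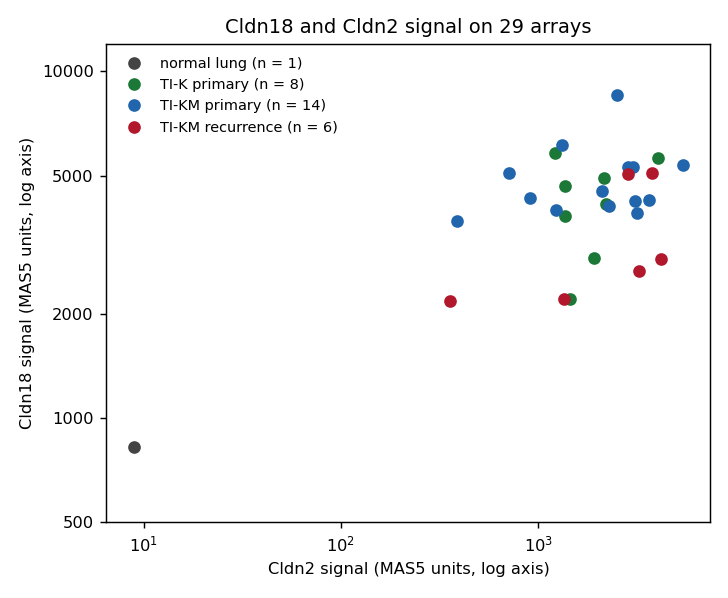
Signal of Cldn18 against that of Cldn2 (both in MAS5 units, log axes), 1 point per array. The normal lung, at 8.92 for Cldn2 and 825 for Cldn18, lies apart from all 28 tumours, and the 3 tumour groups overlap.

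The other 5 claudins were not called against the normal lung in any tumour group in the fit over all arrays. In the 8 remaining TI-KM primary tumours alone Cldn12 was called (0.78, adjusted p = 0.025 by limma). Cldn1, a barrier claudin of many epithelia, read 108 in the normal lung and had medians of 198, 234 and 255 in the 3 groups; its log2 differences were 0.69, 1.07 and 1.13 (adjusted p at least 0.18). Cldn12 read 3501 with medians of 4193, 5243 and 4598 and differences of 0.33, 0.59 and 0.21. Cldn8 read 189 with medians of 92.4, 149 and 213.8 and differences of -0.90, -0.31 and -0.01. Cldn10 read 144 with medians of 75.9, 131 and 263 and differences of -0.68, -0.37 and 0.78. Cldn23 read 80.5 with medians of 48.5, 60.0 and 98.9 and differences of -0.64, -0.51 and 0.25. With 1 normal array these fits cannot show that a level was unchanged.

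**Figure D3:**
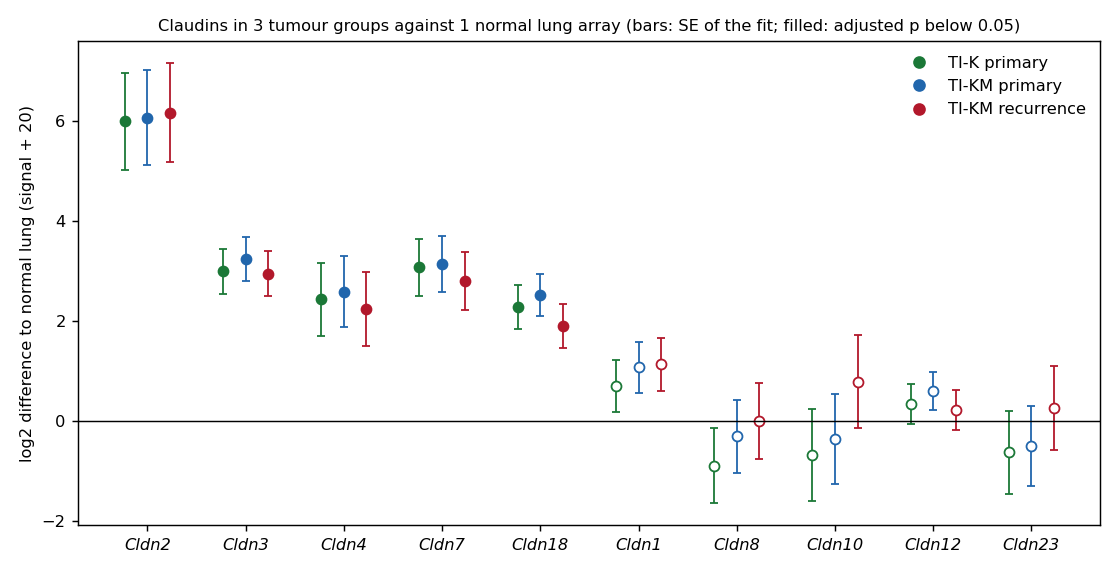
log2 difference of each claudin from the normal lung in the 3 tumour groups, with the standard error of the fit as bars and filled points where the adjusted p was under 0.05. Cldn2 lies near 6, Cldn3, Cldn4, Cldn7 and Cldn18 lie between 1.90 and 3.24, and no point of the other 5 genes is filled.

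Counting arrays rather than calls, 6 claudins had every TI-K primary tumour above the normal lung (26.2% of all genes did), 7 had every TI-KM primary tumour above it (19.8% of all genes) and 6 had every recurrence above it (25.4% of all genes). Beyond the 5 called genes these were Cldn12 in both primary groups and Cldn1 in both TI-KM groups. Of the 10 claudins 1, Cldn23, was lower than the normal lung in all 8 TI-K primary tumours, and 27.6% of all genes were.

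The makeup of the samples moved along with these differences. All 6 general epithelial markers (Epcam, Cdh1, Krt8, Krt18, Krt19 and Krt7) were called higher in each tumour group, with medians of 2.64, 2.76 and 2.40, close to the differences of Cldn3, Cldn4, Cldn7 and Cldn18. Their summed signal was 8896 in the normal lung and 40919 to 66057, 48498 to 72101 and 19252 to 87095 in the 3 tumour groups. Of 12 alveolar type II genes 9 were higher in each group, with medians of 2.26, 2.09 and 1.94, and of 12 alveolar type I genes 2, 1 and 1 were higher. Beside these counts, 6.68%, 7.69% and 6.39% of all genes were called higher. The mean log2 level of 9 gastric and gut lineage genes was 6.90 in the normal lung. It averaged 7.89 in TI-K primary (7.36 to 8.58), 7.94 in TI-KM primary (6.98 to 10.01) and 8.18 in recurrent tumours (7.08 to 10.36). The 3 fat cell genes were lower by medians of -7.39, -6.87 and -7.13. The part of cell makeup in the claudin differences was not tested, and in bulk RNA fewer cells of a type and less RNA per cell cannot be told apart.

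Among the other claudins, Cldn5 and Cldn22 went the other way. Cldn5 is the endothelial claudin. It read 4187 in the normal lung and had medians of 1072, 904 and 1001 in the 3 groups, with no tumour reaching the normal value. Its log2 differences were -1.75 (adjusted p = 0.059), -2.17 (adjusted p = 0.013) and -1.95 (adjusted p = 0.040). Cldn22 read 363 in the normal lung and 38.6 to 310 over the tumours, with log2 differences of -1.99 (adjusted p = 0.011), -1.24 and -1.24, the last 2 not called. Cldn15 differed by -1.69 in TI-K primary tumours (adjusted p = 0.053). Of 10 endothelial genes, Cldn5 among them, 4, 6 and 4 were lower in the 3 groups and none was higher, where 6.76%, 7.16% and 6.06% of all genes were lower.

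Partners of claudins at cell junctions were more often called higher than lower. Of 39 tested junction genes, 17 were higher and 3 lower in TI-K primary tumours, 19 and 2 in TI-KM primary tumours and 15 and 1 in recurrences, with median differences of 0.91, 1.03 and 0.85. Over all genes 6.68%, 7.69% and 6.39% were called higher and 6.76%, 7.16% and 6.06% lower. The few lower junction genes are thus near or under the share of all genes. The protease St14 (log2 difference 3.05, adjusted p = 4.9e-06), its inhibitor Spint2 (1.70, adjusted p = 6.3e-05) and the trafficking protein Rab25 (2.93, adjusted p = 0.00019) were higher in TI-K primary tumours. The scaffold Mpdz was lower (-3.22, adjusted p = 0.00020), as were the adhesion molecules Jam2 (-1.58) and Jam3 (-1.54), which were named after their values were seen. Epcam, which binds Cldn7, was higher by 2.68, and the adherens junction cadherin Cdh1 by 1.71.

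Ocln and Tjp1 were not called. Occludin, Ocln, a strand protein, read 335 in the normal lung with medians of 688, 638 and 597 in the 3 groups. For Ocln all 28 tumours lay above the normal lung. Of all genes 26.2%, 19.8% and 25.4% had every tumour of the group above it. The Ocln differences of 0.85 to 1.03 were close to the medians of the junction list and did not pass the test (adjusted p at least 0.12). The plaque scaffold Tjp1 read 8633 with medians of 8201, 9059 and 9425 and differences of -0.10, 0.07 and 0.03.

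Among 25 tested regulators of epithelial genes, 8, 8 and 7 were higher and 1 was lower in each of the 3 groups, with medians of 0.55, 0.94 and 0.88. The shares of all genes were 6.68%, 7.69% and 6.39% higher and 6.76%, 7.16% and 6.06% lower. Ehf (2.92, adjusted p = 0.00021), Klf5 (2.60), Foxa2 (1.89) and Foxa1 (1.61) were higher in TI-K primary tumours. The gene that was lower was Zeb1, a repressor of epithelial genes (-1.94, adjusted p = 0.021), named after its value was seen. Nkx2-1, the lung lineage factor known to act on Cldn18, read 64.9 in the normal lung with medians of 62.2, 75.5 and 63.8, and its differences of -0.05, 0.06 and -0.02 were not called. Its normal lung signal lay under the 40th percentile of that array (68.1), which ran from 41.8 to 115 in the tumour arrays. At so weak a signal these differences say little about the level of Nkx2-1.

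Between TI-KM and TI-K primary tumours none of the 10 claudins was called, and none reached an unadjusted p under 0.05 by limma. Over all genes 8.01% were called. The differences ran from 0.06 to 0.59, all on the side of TI-KM, with a median of 0.24 against 0.08 over all genes. Cldn8, a claudin of the distal kidney tubule, had the smallest adjusted p (0.21), with 13.7 to 367 in TI-K (median 92.4) and 90.6 to 320 in TI-KM (median 149). The tumour groups overlapped for every member.

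Within the remaining arrays, which hold 3 TI-K and 8 TI-KM primary tumours, Cldn4 was lower in TI-KM by 0.74 on the log2 scale, the other direction from the fit over all arrays (0.15). The smallest unadjusted p of the members within those arrays was 0.054, for Cldn18 (0.53 ± 0.26, SE, not called by limma). Of all 14606 genes, 1 was called within those arrays, and 655 had an unadjusted p under 0.05. In the fit over all arrays 3 of 39 junction genes were higher in TI-KM and none was lower, a share close to the 8.01% of all genes. They were Dsp (0.81), Cdh1 (0.70) and Ybx3 (0.44), and Cdh1 differed by 0.16 within the remaining arrays.

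Between recurrences and TI-KM primary tumours again none of the 10 claudins was called, where 0.26% of all genes were; 3 had an unadjusted p under 0.05 by limma. The differences had a median of -0.12 against 0.04 over all genes. Cldn18 had the smallest p. By its brighter probe set, the 6 recurrences read 2172, 2206, 5094, 5061, 2868 and 2654. By that probe set 4 of 6 lay under the lowest of the 14 TI-KM primary tumours (3698), and no share of all genes is given beside this count. The difference was -0.61 ± 0.20 (SE, adjusted p = 0.19), and it ran from -0.75 to -0.51 on leaving out single arrays. It was -0.61 within the high-18S arrays and -0.72 within the remaining arrays. The dimmer Cldn18 probe set, 1425445_a_at, gave -0.58 ± 0.35 (SE, adjusted p = 0.49 by limma over all probe sets kept). By that probe set no recurrence lay under the lowest TI-KM primary tumour. Its median was lower in recurrences than in TI-KM primary tumours within the high-18S arrays, but not within the remaining arrays.

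Cldn10 had a difference of 1.15 ± 0.42 (SE, adjusted p = 0.25), and Cldn12 one of -0.38 ± 0.18 (adjusted p = 0.39). On leaving out recurrence 6, Cldn10 was called (1.58, adjusted p = 0.0495 by limma). The remaining differences were -0.34 for Cldn4 and Cldn7, -0.30 for Cldn3, 0.06 for Cldn1, 0.10 for Cldn2, 0.30 for Cldn8 and 0.77 for Cldn23, none called. The direction of Cldn3 and Cldn7 rested on recurrence 1: without it the differences were 0.02 and 0.06. Of 39 junction genes none was called, the smallest p being that of Ildr1 (0.46, adjusted p = 0.32), and of 25 regulators none.

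Between recurrences and TI-K primary tumours Cldn10 alone was called, where 18.9% of all genes were. That share fell to 0.0959% with the array sets as a block and was 0.13% within the remaining arrays. Cldn10, a claudin whose splice forms make paracellular cation or anion channels, ran from 49.3 to 161 in TI-K primary tumours (median 75.9), from 28.8 to 333 in TI-KM primary tumours (median 131) and from 44.6 to 978 in recurrences (median 263). The groups overlapped. The difference was 1.46 ± 0.47 (SE, adjusted p = 0.029). It was lost with the array sets as a block (0.91, adjusted p = 0.56), within the remaining arrays (0.48, adjusted p = 0.84), and without TI-K primary 1 or 3 or recurrence 1, 2 or 4, with 1.10 to 1.43 in those fits.

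Cldn10 also moved with the array sets: within TI-KM primary tumours it was higher in the 6 high-18S arrays than in the other 8 (1.02 ± 0.38, SE, adjusted p = 0.031), and within recurrences in the 4 high-18S arrays (1.93 ± 0.61, adjusted p = 0.028). Airway markers moved with it too. In recurrences against TI-K primary tumours 6 of 8 ciliated cell genes and 3 of 8 club cell genes were called higher, with medians of 1.59 and 1.196. Of all genes 18.9% were called there in either direction. Within the remaining arrays the ciliated mean log2 level was 8.28 and 6.84 in recurrences 5 and 6, and 6.83 to 7.06 in TI-K primary tumours. The club mean there was 12.76 and 10.46 in these recurrences, and 9.56 to 10.44 in TI-K primary tumours. The summed signal of the ciliated list was 3756 to 6662 in TI-K primary tumours and 5273 to 15896 in recurrences. That of the club list was 15220 to 76743 and 27998 to 119912, and in the normal lung 105940. Their part in the Cldn10 difference was not tested.

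Cldn8 (0.89 ± 0.38, adjusted p = 0.091) and Cldn23 (0.89 ± 0.42, adjusted p = 0.12) were also higher on average in recurrences than in TI-K primary tumours without being called. Leaving out TI-K primary 5 or recurrence 3 brought Cldn8 past the threshold (1.15 and 1.14), and leaving out recurrence 6 did so for Cldn23 (1.29). Cldn23 was above the 40th percentile of the array in 0 of 8 TI-K primary, 3 of 14 TI-KM primary and 5 of 6 recurrent tumours. Its differences from TI-K primary tumours are thus taken against signals under that percentile. Without the recurrences Cldn23 would not have passed the filter on low signals, so it entered the fits through the group where it is high. Cldn1 differed by 0.44, and Cldn2, Cldn3, Cldn4, Cldn7, Cldn12 and Cldn18 by -0.38 to 0.17, none called. Within the remaining arrays, with 2 recurrences and 3 TI-K primary tumours, Cldn8 differed by 1.92 and Cldn4 by -1.58 (adjusted p = 0.28 and 0.33 by limma).

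**Figure D4:**
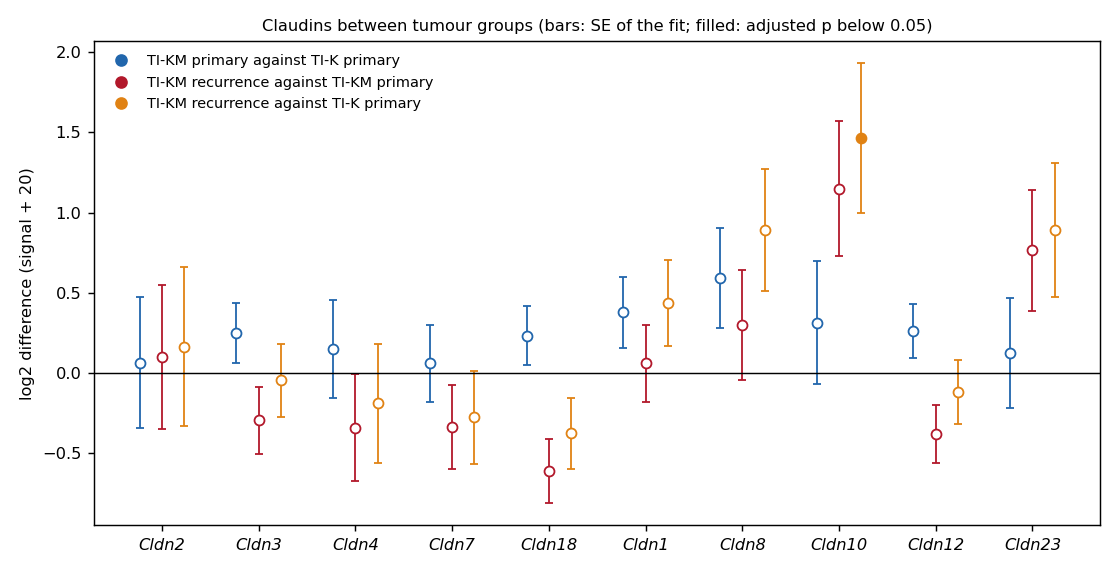
log2 difference of each claudin between pairs of tumour groups, with the standard error of the fit as bars and filled points where the adjusted p was under 0.05. The only filled point is Cldn10 in recurrences against TI-K primary tumours, at 1.46.

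The within-array ratios of Cldn18 to Cldn2, Cldn3, Cldn4 and Cldn7 passed no 2-sided exact permutation test in 12 comparisons between tumour groups. These tests pooled the array sets and used the brighter probe sets of Cldn2 and Cldn18. The smallest exact p was 0.17, for Cldn18 over Cldn2 in recurrences against TI-KM primary tumours (0.61 ± 1.09 against 1.32 ± 1.004, SD, n = 6 and 14, adjusted p = 0.91). That difference was -0.71 over all arrays, -1.49 within the remaining and -0.52 within the high-18S arrays. For Cldn18 over Cldn4, TI-KM against TI-K primary tumours gave 0.08 over all arrays and 1.27 within the remaining arrays. Recurrences against TI-K primary tumours gave -0.19 and 1.39. By the dimmer Cldn2 probe set, the median Cldn18 to Cldn2 ratio was 3.89 in recurrences and 5.28 in TI-K primary tumours. These further values were not tested. The ratios were added after the data were seen.

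Several claudins had a different level in the sets of arrays, which is why within-set values stand beside some of the group comparisons. In TI-KM primary tumours, Cldn7 (-0.62 ± 0.25, SE, adjusted p = 0.046) and Cldn12 (-0.45 ± 0.16, adjusted p = 0.031) were lower and Cldn10 was higher in the high-18S arrays, 3 of 10 claudins where 42.6% of all genes were called. In TI-K primary tumours 0 of 10 were called by limma between the 5 arrays of high title number and the other 3, where 7.75% of all genes were, and 2 had an unadjusted p under 0.05. One of these was Cldn4, at 229 to 597 in the 5 arrays and 687 to 848 in the other 3 (-1.04 ± 0.43, SE, adjusted p = 0.13). The share of all genes that keep these arrays apart in the same way was not computed. In recurrences 2 of 10 claudins, Cldn10 and Cldn23, were higher in the high-18S arrays, where 18.8% of all genes were called. Cldn23 passed the filter on low signals only through the recurrences. For no member was the difference between recurrences and TI-KM primary tumours called as unequal in the 2 sets (smallest adjusted p = 0.69; 0.0137% of all genes called).

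Some of the dimmer probe sets changed where the representing ones did not. For Cldn2 the second probe set was called higher in TI-KM than in TI-K primary tumours (0.77 ± 0.23, SE, adjusted p = 0.026) and in recurrences than in TI-K primary tumours (1.14 ± 0.28, adjusted p = 0.0042). It read 174 to 282 in the 6 high-18S TI-KM primary tumours and 97.2 to 160 in the other 8. The Cldn1 probe set 1438851_x_at was above the 40th percentile of the array in 0 of 8 TI-K primary, 5 of 14 TI-KM primary and 2 of 6 recurrent tumours, so it entered the fits through the groups where it is high. It read 85.3 to 161 in the high-18S and 17.9 to 40.3 in the other TI-KM primary tumours, and 14.2 to 40.1 in TI-K primary tumours.

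Recurrence 1 was low for Cldn3, Cldn7 and Cldn12 beside the other 5 recurrences, as the map of tumour arrays shows. It had the lowest of the 6 recurrences' signals for Cldn2 (357), Cldn3 (2932), Cldn7 (577), Cldn12 (1704) and Cldn18 (2172, with the next at 2206) and the highest for Cldn10 (978). It was not an extreme of the 6 for Cldn1, Cldn4, Cldn8 or Cldn23. The other 5 recurrences read 8156 to 14368 for Cldn3, 2251 to 3714 for Cldn7 and 44.6 to 466 for Cldn10. Its mean log2 level of general epithelial markers was 11.26 against 12.46 to 13.57 in the other 5, and that of junction genes was 9.87 against 10.74 to 10.997. Its club and ciliated cell means, 13.30 and 9.99, were the highest of all tumours. Epcam and Cdh1 are in both the epithelial and the junction list. The part of these levels in its claudin pattern was not tested.

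**Figure D5:**
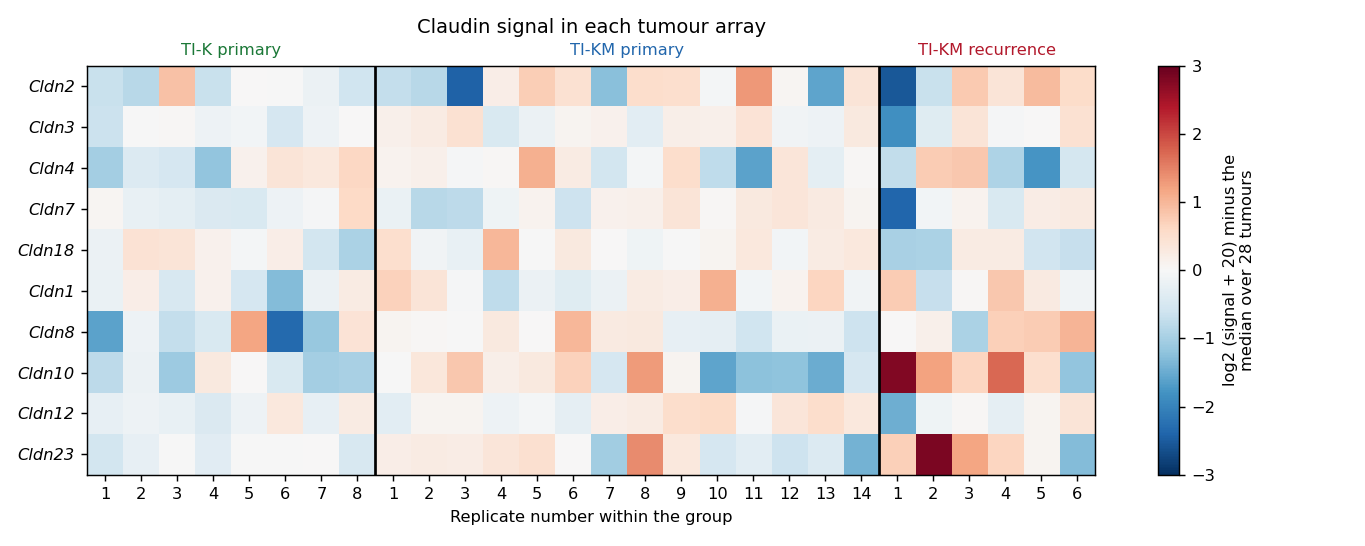
Level of each claudin in each of the 28 tumour arrays, as log2(signal + 20) minus the gene's median over the tumours, red for higher and blue for lower. Recurrence 1 is blue for Cldn2, Cldn3, Cldn7, Cldn12 and Cldn18 and red for Cldn10, and recurrence 2 is red for Cldn23.

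From tumour to tumour, once the means of each group and array set were removed, no pair of claudins varied together past the threshold. Pearson and Spearman correlations were computed for 75 relations over 28 tumours, 45 of them between members and the rest with junction, alveolar type I and alveolar type II genes, and 0 had an adjusted p under 0.05 by permutation within sets. The smallest p was that of Cldn10 with the mean of junction genes, with r = -0.52 (permutation p = 0.0012, adjusted p = 0.093) and rho = -0.43 (permutation p = 0.016, adjusted p = 0.30). Without the 2 arrays farthest from the median r was -0.37. It was -0.86 within the 10 high-18S arrays (permutation p = 0.015) and -0.38 within the 13 remaining ones (permutation p = 0.11). No relation within either set had an adjusted p under 0.28.

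Cldn7 with junction genes gave r = 0.86 (permutation p = 0.011, adjusted p = 0.24) and rho = 0.63 (permutation p = 0.012, adjusted p = 0.29), and r was 0.48 without the 2 farthest arrays. It was 0.90 within the high-18S arrays (permutation p = 0.044) and 0.71 within the remaining ones (permutation p = 0.099). Cldn2 and Cldn18 gave r = 0.49 (permutation p = 0.034, adjusted p = 0.37) and rho = 0.44 (permutation p = 0.048, adjusted p = 0.43), and r was 0.29 without the 2 farthest arrays. It was 0.67 within the high-18S arrays (permutation p = 0.065) and 0.16 within the remaining ones (permutation p = 0.47).

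The genes whose levels followed Cldn2 most closely over the 28 tumours, on the same residuals, were Adtrp (r = 0.85), Ntmt1 (0.81), Maged1 (0.77), Tmed4 (0.77) and Pdha1 (0.77). For Cldn18 they were Mpdu1 (r = 0.74), Serhl (0.74), Aox3 (0.73), Macrod1 (0.73) and Acot2 (0.72). These are the highest of 14606 genes and are a description. The 2 lists share no gene.

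Of the 7 other claudins tested, 1 was called between TI-KM and TI-K primary tumours and 2 between recurrences and TI-K primary tumours, where 8.01% and 18.9% of all genes were. All 3 also differed between the array sets of TI-KM primary tumours, as did 42.6% of all genes. Cldn22 was higher in TI-KM than in TI-K primary tumours, at 58.0 to 310 (median 148) against 38.6 to 106 (median 92.6), by 0.75 ± 0.22 (SE, adjusted p = 0.039). The difference was 0.23 within the remaining arrays. Cldn15, a pore claudin of the intestine, was higher in recurrences than in TI-K primary tumours, at 108 to 613 (median 187) against 51.9 to 118 (median 80.4), by 1.35 ± 0.30 (adjusted p = 0.0041), and by 0.32 within the remaining arrays. Cldn34c4, above the 40th percentile in 1 of 8 TI-K primary tumours, differed by 0.73 ± 0.26 (adjusted p = 0.047) in that comparison, and by 0.07 within the remaining arrays. Between the high-18S and other TI-KM primary tumours the 3 genes differed by 0.64, 0.82 and 0.73, all called.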

How the data were processed

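RNA from 28 tumours and 1 normal lung was hybridized to 1 array per sample, after RNeasy extraction and two-cycle labelling with biotin, per the labels' protocols. The deposited values are an intensity per probe set, and the submitters' processing notes name MAS5, with no version given in the sources used here. The series text names the MOE430A 2.0 array, and the deposited table holds 45101 probe sets. Arrays were used as deposited. Precision is limited by how many arrays each group has.

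After 64 control probe sets were dropped, probe sets were named through the platform annotation and a RefSeq table of GRCm38.p6: 34958 named 1 gene, 932 several and 9160 none, and 34754 were matched to the table. Those over the 40th percentile of their array in at least 6 arrays were kept (31948), and the probe set with the highest mean stood for a gene. An offset of 20 was added before log2, which understates changes of weak genes. All arrays entered 1 limma fit (version 3.58.1, R 4.3.3) with the 4 groups and a variance trend, and array sets were compared in a second fit of group by set. The spread of the single normal lung was taken to equal that of the tumours. Correlations used 100000 permutations within group and set (numpy 2.4.6), and the exact tests of ratios used scipy 1.17.1. The fit was tested on simulated data with 100 genes changed 2-fold and 100 changed 4-fold. Against the normal lung it recovered 6, 10 and 5 of the 2-fold changes in TI-K primary, TI-KM primary and recurrent tumours. Of the 4-fold changes it recovered 45, 43 and 33, so many real differences from the normal lung would not be called. The 2-fold recovery was 74 for TI-KM against TI-K primary tumours, 73 for recurrences against TI-KM and 44 against TI-K primary tumours.

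All members were named in every comparison, with counts and the smallest p of fixed lists. The members and lists were chosen with earlier results of these data known. Alternatives covered the offset, scaling, filter, variance model, choice of probe set, samples in the fit, array sets and leaving out each array. The name of the oncogene transgene is not reported here.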

Additional observations from a re-analysis of the deposited data

Results flagged for a closer look

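Recurrence 1 lay far below the other 5 recurrences for 3 claudins. Its gap to the next recurrence on the log2 scale, as a share of the range of the 6 recurrences, was 0.729 for Cldn7, 0.643 for Cldn3 and 0.639 for Cldn12. Of 34 pairs of a claudin gene and a group of 4 to 10 arrays looked at, these 3 stood out, and chance gives about 5% of such pairs. All 3 come from the same array.

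A probe set of Cldn9 that the filter on low signals kept out of the comparisons, 1439427_at, read 386.6 in recurrence 2. It read 1.204 in the normal lung, at most 17.2 in TI-K primary tumours, at most 36.2 in TI-KM primary tumours and at most 21.1 in the other 5 recurrences. The second Cldn9 probe set, 1450524_at, read 19.99 in recurrence 2, inside the range of the other recurrences.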

How the results depend on the processing

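Over 60 member differences and 1664 alternative fits, 1591 kept their direction and their side of the threshold, 20 lost the call, 7 gained it and 46 turned direction, 23 of those on leaving out 1 array. Of the differences that turned, 0 had an adjusted p under 0.05 in the fit reported. No paired analysis was possible because the labels number no replicates across groups. The normal lung is 1 array, so that array was left out of no comparison with it.

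The number of claudins called changed as follows. In TI-K primary tumours against normal lung it was 4 with an offset of 100 (Cldn4 lost), and in TI-KM primary tumours against normal lung it was 6 in the remaining arrays only (Cldn12 gained). With the mean over probe sets, which brings in the dim second Cldn1 probe set, Cldn1 was called: the count was 1 in TI-KM against TI-K primary tumours and 2 in recurrences against TI-K primary tumours. In the latter it was 0 with array sets as a block and 0 in the remaining arrays only, and 0 to 2 on leaving out single arrays. In recurrences against TI-KM primary tumours leaving out arrays gave 0 to 1. Recurrences against normal lung gave 1 in place of 5 with only those groups in the fit, which has fewer samples, 4 under 6 other settings and 4 to 5 on leaving out single arrays. The array sets gave 0 with quantile normalization, 2 with an offset of 100 and 4 with a common median, in place of 3. Correlations with group means alone removed gave 2 called pairs, Cldn7 with Cldn10 and Cldn7 with Cldn12.

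The differences that turned were these, and the cause was not tested. In TI-KM against TI-K primary tumours, Cldn23 was -0.037 with quantile normalization, -0.33 with the block and -0.16 in the remaining arrays, and Cldn4 was -0.81 with the block and -0.74 in the remaining arrays. In recurrences against TI-K primary tumours, Cldn12 was 0.019 with the block and 0.14 in the remaining arrays, Cldn3 was 0.067 with the mean over probe sets, 0.13 with the block and 0.45 in the remaining arrays, where Cldn7 was 0.10 and Cldn23 -0.45. In recurrences against TI-KM primary tumours, the remaining arrays gave -0.16 for Cldn1, -0.29 for Cldn23, 0.16 for Cldn3 and 0.030 for Cldn7. Against normal lung, the remaining recurrences gave -0.51 for Cldn10, -1.04 for Cldn23 and 0.60 for Cldn8. Cldn8 was 0.024 there with an offset of 100 and 0.032 with a common median. The high-18S arrays gave -0.022 for Cldn12 in recurrences and 0.21 for Cldn10 in TI-KM primary tumours.

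On leaving out single arrays, Cldn2 ran from -0.050 to 0.24 in TI-KM against TI-K primary tumours. In recurrences against TI-K primary tumours Cldn2 ran from -0.042 to 0.66, Cldn3 from -0.18 to 0.27, Cldn4 from -0.43 to 0.085, Cldn7 from -0.41 to 0.12 and Cldn12 from -0.24 to 0.13. In recurrences against TI-KM primary tumours Cldn1 ran from -0.067 to 0.24, Cldn2 from -0.11 to 0.59, Cldn3 from -0.43 to 0.025 and Cldn7 from -0.47 to 0.062. In recurrences against normal lung Cldn8 ran from -0.16 to 0.24 and Cldn23 from -0.17 to 0.65.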

Other observations

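Recurrence 2 differed from the other tumours in claudins that were otherwise low, chosen here after their values were seen. Cldn6, a claudin of embryonic epithelium, read 1254 in recurrence 2, 7.11 to 95.4 in the other 5 recurrences, at most 105 in TI-KM primary tumours, at most 56.5 in TI-K primary tumours and 25.3 in the normal lung. Cldn6 (chr17:23679348-23682446) and Cldn9 (chr17:23682584-23684026) are neighbours in GRCm38.p6, 137 bases apart with no other coding gene between them. Cldn23 was highest in the same array, at 505, where the other recurrences read 10.4 to 148. The mean log2 level of gastric and gut lineage genes in recurrence 2 was 10.36, against 7.08 to 8.80 in the other recurrences and 10.01 in TI-KM primary tumour 8. With 1 array there is no replicate check, and whether these levels belong together was not tested.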
